A study of Sebastes mystinus with 44 samples.

Results

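Juvenile blue rockfish (Sebastes mystinus) kept in seawater of lowered oxygen were sampled after 12 h and after 24 h, and the comparison of the later with the earlier fish asks what changed in their white muscle over the second part of the first day. The fish were found by their labels, which name the exposure DO and the sampling time, and they are 7 of the 44 fish of the series. They are the 4 DO fish of 12 h (Mys21, Mys22, Mys23 and Mys24) and the 3 DO fish of 24 h (Mys34, Mys35 and Mys36). All fish of the series lived in aquaria with running seawater, and for the DO fish nitrogen was bubbled to take oxygen out. The other exposures serve as comparison at the same times. Control fish lived in untreated seawater (4 fish at 12 h and 4 at 24 h), pH fish in seawater made acid with carbon dioxide (4 and 3 fish), and 4 and 4 fish belonged to a group named cross, which the labels do not define. DO fish sampled after 2 weeks (4 fish) show where levels stood later.

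Each fish was sampled once, so the comparison is between fish and not within a fish. The oxygen level reached, the aquarium of each fish, its library preparation set and the hour of the day were not given in the labels. Exposure time and anything else that went with the sampling time cannot be told apart. Fish of a group may have shared an aquarium, and p-values treat them as independent samples. The measured features are assembled transcripts with Trinity identifiers, which the files do not pair with gene names, so the identity of the tissue could not be checked against muscle markers and no feature can be given a function. In bulk tissue, fewer cells of a type and less RNA per cell cannot be told apart.

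As background, white muscle is the fast, mostly glycolytic muscle that makes up most of the body of a fish and powers its bursts of swimming. When oxygen falls, vertebrate cells keep the hypoxia-inducible factor HIF-1 alpha from being broken down, and this transcription factor raises genes of glycolysis, glucose uptake, red cell production and vessel growth. Muscle also carries a circadian clock, and many of its transcripts rise and fall with the time of day in unstressed animals.

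The 7 libraries held between 13840192 and 25071257 counts, so that 3 counts corresponded to between 0.120 and 0.217 CPM (counts scaled to a common library size) before composition scaling. One library stood apart. When every library was reduced to the depth of the shallowest of the 44, the 12 h fish had 45140, 41838, 44479 and 41661 features with a count (Mys21 to Mys24). The 24 h fish Mys34 and Mys36 had 43616 and 43660 such features, whereas fish Mys35 had 64327, the highest number of all 44 fish. In fish Mys35 the 100 most abundant features took 40.8% of the counts, the lowest share of all 44 fish, beside 60.9% and 59.7% in fish Mys34 and Mys36 and 56.8% to 63.0% at 12 h. Over the groups, the number of detected features was 43280 ± 1789 (SD, n = 4) at 12 h and 50534 ± 11945 (SD, n = 3) at 24 h (exact permutation test, two-sided, p = 0.343; 3 against 4 fish cannot go below 0.0571). The share of the 100 most abundant features was 60.6% ± 2.74 (SD, n = 4) and 53.8% ± 11.3 (SD, n = 3; exact permutation test, two-sided, p = 0.400). Many results that rest on fish Mys35 are therefore given with and without it, and the others include it.

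**Figure D1:**
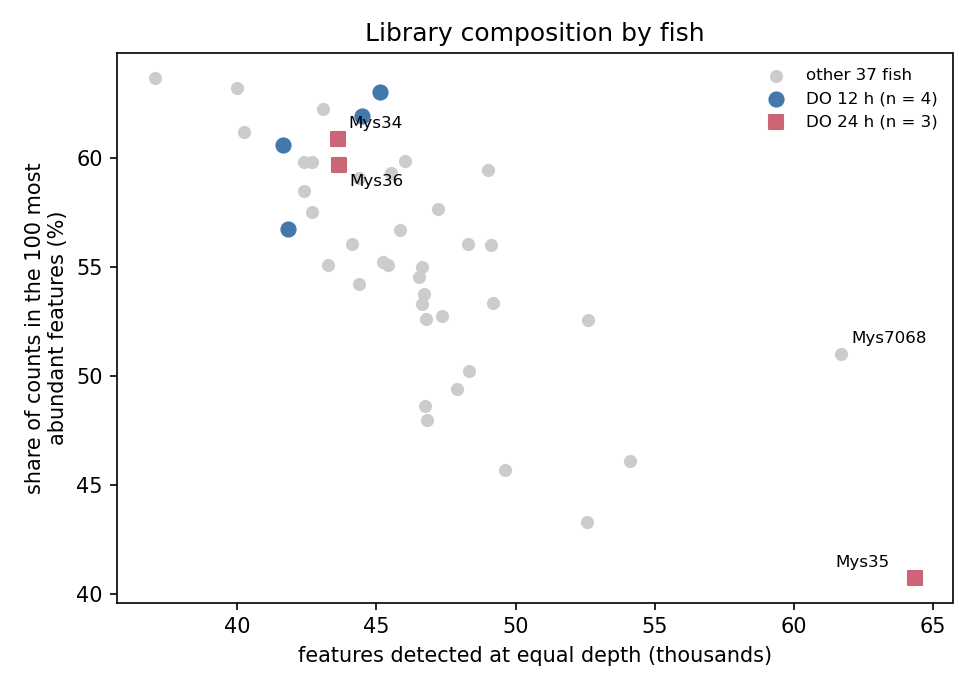
Each point is 1 fish: the horizontal axis gives the number of features with a count when all libraries are reduced to equal depth, and the vertical axis the share of counts in the 100 most abundant features, in percent. The DO fish of 12 h (blue circles) and 2 of the DO fish of 24 h (red squares) lie together between 41661 and 45140 features, while fish Mys35 lies alone at 64327 features and 40.8%; cross fish Mys7068 is the next highest in features.

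The spread among the fish of 24 h was larger in value than among those of 12 h with fish Mys35 and not without it, and neither difference was tested. The mean correlation of log2 CPM between 2 fish was 0.938 within the 12 h group, 0.904 within the 24 h group and 0.912 between the groups. Fish Mys34 and Mys36 correlated at 0.943, within the 0.932 to 0.947 of the pairs of 12 h fish, and at a mean of 0.932 with the 12 h fish. The biological coefficient of variation (the relative spread of a feature's level between fish beyond counting error) was 37.5% at 12 h and 53.1% at 24 h, or 30.9% at 24 h from Mys34 and Mys36 alone. Within the groups the chi-square statistic per feature ran from 23.4 to 57.96 over the 6 pairs of 12 h fish and from 30.3 to 145 over the 3 pairs of 24 h fish (115 and 145 in the pairs with Mys35), far above sampling noise, so no library was a copy of another.

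At 24 h 2 features were higher than at 12 h in DO fish and none was lower, out of 34070 features tested (0.00587%; edgeR quasi-likelihood test on 1 fit of all 44 libraries, Benjamini-Hochberg adjusted p under 0.05). At an unadjusted p under 0.05 there were 3766 features (11.1% of those tested). The typical feature moved little: the median absolute log2 fold change was 0.43, with a median standard error (SE) of 0.54. DESeq2 called 86 features (37 higher, 49 lower) and limma voom with quality weights 30 (23 higher, 7 lower), and both lists held the 2 features that edgeR called. The edgeR fit of only these 7 fish, and that of the 30 fish of 12 h and 24 h, called 0 features. They tested fewer features, with 2356 of 22301 and 2415 of 29339 at an unadjusted p under 0.05.

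The feature with the smallest p was TRINITY_DN47201_c2_g3, a transcript of low level that is named because it is 1 of the 2 called, although its average level lies under the minimum of the naming rule. It had 16, 19, 5 and 7 counts in the 12 h fish Mys21 to Mys24, which is 1.11, 0.954, 0.411 and 0.616 CPM. In the 24 h fish it had 59, 91 and 57 counts in Mys34, Mys35 and Mys36, which is 4.42, 2.54 and 4.52 CPM. Every 24 h fish stood above every 12 h fish, and fish Mys35 was the lowest of the 3. The means were 0.771 ± 0.315 CPM (SD, n = 4) and 3.83 ± 1.11 CPM (SD, n = 3), or a log2 ratio of 2.27 (adjusted p = 0.0375 by edgeR, SE 0.41).

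TRINITY_DN47201_c2_g3 was also higher at 24 h in the other groups. Control fish went from 0.927 ± 0.449 to 2.89 ± 1.20 CPM (SD, n = 4 each), or a log2 ratio of 1.64 (adjusted p = 0.0310 by edgeR, SE 0.39). In pH fish the change was 1.26 (adjusted p = 0.276 by edgeR, SE 0.40) and in cross fish 0.89 (adjusted p = 0.171 by edgeR, SE 0.37), neither past the threshold. The change of DO fish exceeded that of control fish by 0.63 on the log2 scale (adjusted p = 0.985 by edgeR, SE 0.56), which did not pass the test. At 2 weeks DO fish had 0.776 ± 0.226 CPM (SD, n = 4), with no fish above the highest 12 h fish.

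TRINITY_DN53539_c0_g3 had the larger change of the 2 called features. It had 4, 33, 4 and 9 counts at 12 h (0.276, 1.66, 0.329 and 0.792 CPM in Mys21 to Mys24) and 69, 187 and 179 counts at 24 h (5.17, 5.23 and 14.2 CPM in Mys34 to Mys36). The groups did not overlap, which the naming rule required. The spread within each was wide: fish Mys22 was the highest at 12 h and fish Mys36 the highest at 24 h. The means were 0.763 ± 0.639 CPM (SD, n = 4) and 8.20 ± 5.19 CPM (SD, n = 3), or a log2 ratio of 3.35 (adjusted p = 0.0375 by edgeR, SE 0.60).

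In control fish TRINITY_DN53539_c0_g3 stood at 2.07 ± 1.11 CPM at 12 h and 8.17 ± 2.49 CPM at 24 h (SD, n = 4 each), or a log2 ratio of 1.99 (adjusted p = 0.0579 by edgeR, SE 0.54). The level in DO and control fish was nearly the same at 24 h, with a log2 difference of 0.0012 (SE 0.55), while at 12 h DO fish were lower by a log2 difference of -1.36 (adjusted p = 0.841 by edgeR, SE 0.58). The excess of the DO change over the control change, 1.36 on the log2 scale (adjusted p = 0.974 by edgeR, SE 0.79), did not pass the test. The changes in pH and cross fish were 1.11 (SE 0.55) and 0.74 (SE 0.52), with edgeR adjusted p of 0.573 and 0.464. At 2 weeks the level in DO fish was 0.926 ± 0.306 CPM (SD, n = 4), back within the range of the 12 h fish.

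Both calls depended on single fish. TRINITY_DN47201_c2_g3 lost its call without any of fish Mys22, Mys23, Mys24, Mys34 and Mys36 (edgeR adjusted p 0.0571, 0.111, 0.328, 0.160 and 0.126), and TRINITY_DN53539_c0_g3 without any of fish Mys21, Mys23, Mys24 and Mys36 (0.0875, 0.111, 0.328 and 0.138). Without fish Mys35 both passed, with edgeR adjusted p of 0.0177 and 0.0210. Their log2 fold changes stayed between 2.07 and 2.51 and between 2.70 and 4.14 with each fish left out.

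No feature was lower at 24 h past the threshold in the main edgeR fit. The naming rule, which requires groups that do not overlap, then gives the features with the smallest unadjusted p. The first was TRINITY_DN55078_c0_g1. It stood at 11.8, 24.4, 12.3 and 30.4 CPM in the 12 h fish Mys21 to Mys24 and at 2.40, 4.84 and 4.91 CPM in the 24 h fish Mys34 to Mys36. The lowest 12 h fish was well above the highest 24 h fish. The log2 fold change was -2.27 (adjusted p = 0.0642 by edgeR, SE 0.44).

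TRINITY_DN55078_c0_g1 had nearly the same change in every exposure. It fell in control fish from 18.6 ± 1.40 to 3.55 ± 2.44 CPM (SD, n = 4 each; log2 fold change -2.36; adjusted p = 0.00344 by edgeR, SE 0.40). It also fell in pH fish (-2.61; adjusted p = 0.0152 by edgeR, SE 0.45) and in cross fish (-2.33; adjusted p = 0.00259 by edgeR, SE 0.40). DO and control fish differed in this change by 0.088 on the log2 scale (SE 0.56). Unlike the 2 features that rose, it stayed low later: DO fish had 5.56 ± 0.876 CPM (SD, n = 4) at 2 weeks, a log2 fold change of -1.83 against the same 12 h fish (adjusted p = 0.0233 by edgeR, SE 0.39).

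The other lower feature, TRINITY_DN46034_c8_g1, showed a larger change in DO fish than in any other group, although no test of that difference passed. The DO fish chose this feature, as they did the other named ones, which favors a larger change in DO fish. Its level was 5.18, 4.92, 4.77 and 7.30 CPM in the 12 h fish Mys21 to Mys24 and 0.375, 0.783 and 1.51 CPM in the 24 h fish Mys34 to Mys36. The 12 h fish lay close together apart from fish Mys24, and no 24 h fish came near them. The log2 fold change was -2.65 (adjusted p = 0.0841 by edgeR, SE 0.53), beside -0.82 (SE 0.44) in control, -0.50 (SE 0.48) in pH and -1.07 (SE 0.46) in cross fish. The mean DO change went beyond the control change by -1.83 on the log2 scale (adjusted p = 0.974 by edgeR, SE 0.67). At 24 h the DO fish were lower than the control fish by -1.71 (adjusted p = 0.241 by edgeR, SE 0.52), and at 12 h the difference was 0.12 (SE 0.43). At 2 weeks DO fish had 2.40 ± 1.37 CPM (SD, n = 4), a mean between those of the earlier times.

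A further feature chosen by the rule, the highest in level of the 5, was higher at 24 h without passing the threshold. It stood at 7.87, 6.48, 6.41 and 5.54 CPM in Mys21 to Mys24 and at 19.2, 19.99 and 25.4 CPM in Mys34 to Mys36, groups that were far apart and each close together. The mean of 6.58 ± 0.964 CPM (SD, n = 4) stands beside a later mean of 21.5 ± 3.40 CPM (SD, n = 3), or a log2 ratio of 1.71 (adjusted p = 0.120 by edgeR, SE 0.36). Its changes in control, pH and cross fish were 0.76, 1.05 and 1.03 (SE 0.34, 0.36 and 0.34). Assembled relatives of the 2 called features had values far below theirs. The 2 other tested features of the same Trinity component as TRINITY_DN53539_c0_g3 had log2 fold changes of -0.62 and -0.16. The 1 other tested feature beside TRINITY_DN47201_c2_g3 had 0.43. Beside TRINITY_DN55078_c0_g1, which fell, the 2 other tested features had -0.14 and 2.21.

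**Figure D2:**
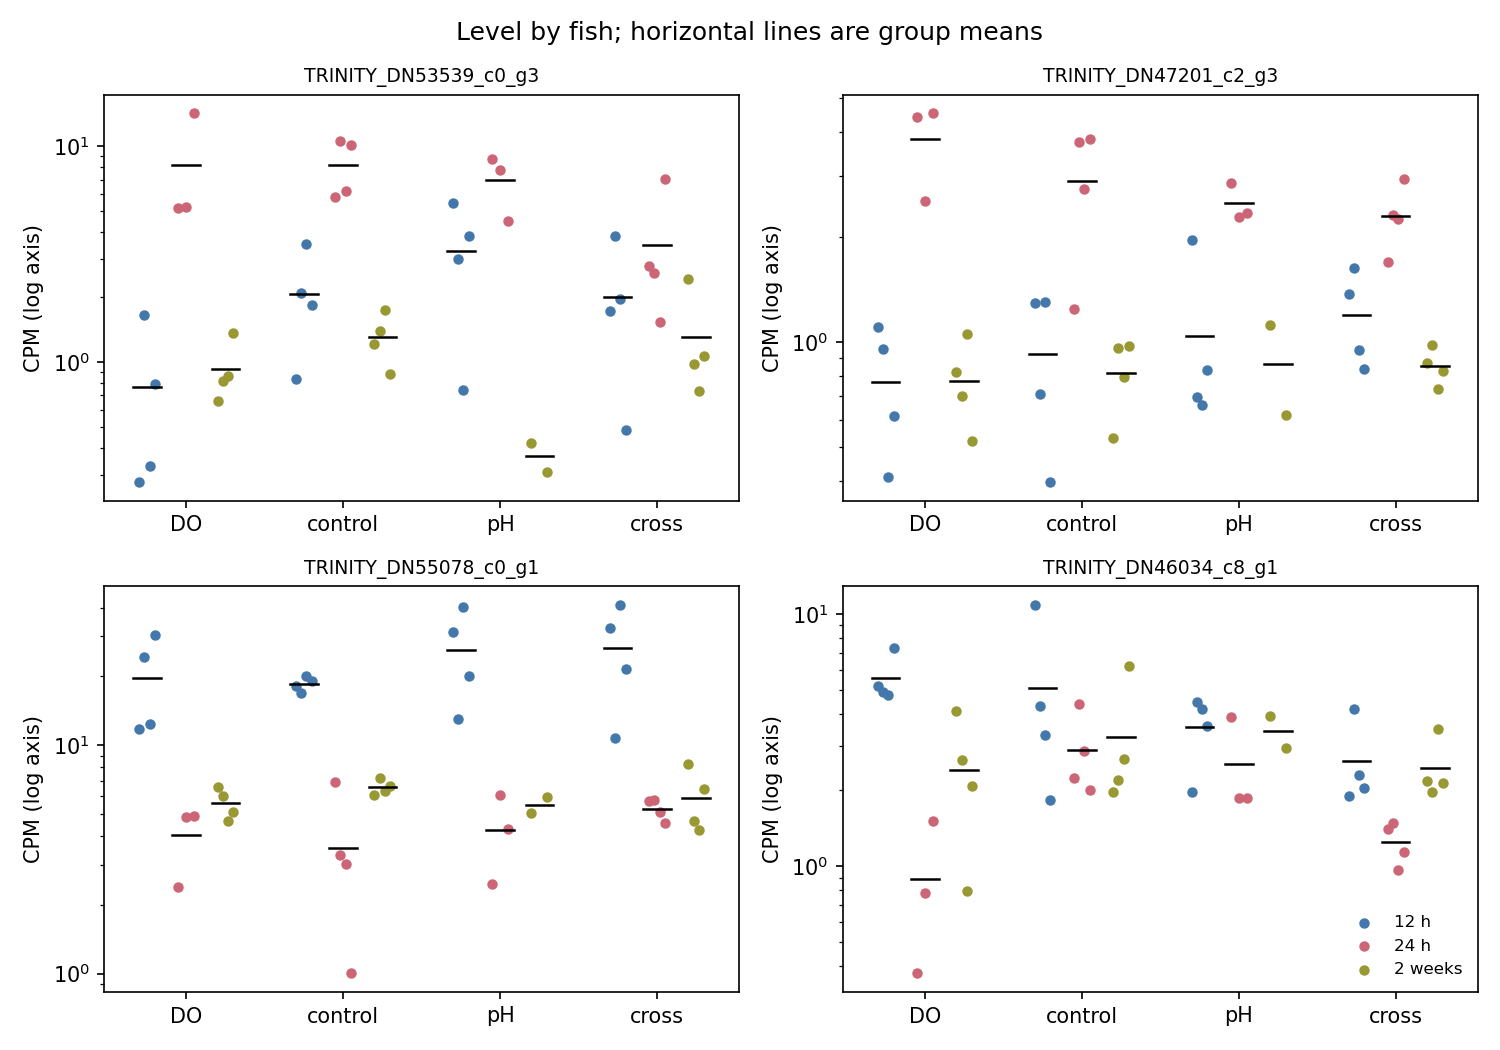
Level in CPM (vertical axis, logarithmic) of the 4 features named in the text, by exposure (horizontal axis) and sampling time (blue 12 h, red 24 h, olive 2 weeks), with 1 point per fish and a black line at the group mean. The DO fish of 24 h do not overlap the DO fish of 12 h in any panel, which the naming rule required of all but TRINITY_DN47201_c2_g3. The control, pH and cross fish of TRINITY_DN55078_c0_g1 show the same drop from 12 h to 24 h.

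Across all features, rises outnumbered falls among the weaker differences, but not without fish Mys35: 2449 features were higher at an unadjusted p under 0.05 (7.19% of those tested) and 1317 lower (3.87%), whereas without fish Mys35 the numbers were 1015 and 1230 of 31894 features. Of the 2449 higher features, 1733 (70.8%) had their highest level of the 7 fish in Mys35, and 706 (28.8%) kept an unadjusted p under 0.05 without it. Without Mys35 only 1616 of them passed the filter on low counts and could be tested, so the 706 are 43.7% of those tested, and the other 833 were not tested. In both of the other 24 h fish, 953 of them (38.9%) stood above every 12 h fish. Over these 2449 features the median shift from the 12 h mean was 2.26 log2 units in fish Mys35 and 0.61 and 0.70 in fish Mys34 and Mys36. These values chose the features and are a description, and no such counts over all features are given beside them.

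For the lower features the same counts were as follows, again from values that chose the features and with no shares over all features. Of the 1317, fish Mys35 was the lowest of the 7 in 541 (41.1%), both other 24 h fish stood below every 12 h fish in 923 (70.1%), and 651 (49.4%) kept an unadjusted p under 0.05 without Mys35, where 1315 could be tested. The median log2 fold change was -1.23 for the lower features. For the higher features it was 2.38, or 2.23 when the 526 features with no count in any 12 h fish were set to the bound that 3 counts over the 12 h group allow. Without fish Mys35 the medians were 1.03 over the 1616 higher features that could be tested and -1.19 over the 1315 lower ones. Groups did not overlap for 3027 of all 34070 features (8.88%), with 1509 higher (4.43%) and 1518 lower (4.46%) at 24 h.

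The excess of higher features lay mostly among features of low level. Of the 14591 features with an average log2 CPM under 0, 10.2% were higher and 2.15% lower at an unadjusted p under 0.05. In the class from 2 to 4 the shares were 5.06% higher and 6.39% lower, and of the 458 features at 8 or more none was higher and 6 were lower. Without fish Mys35 the class under 0 held 12558 features, 2.28% of them higher and 3.15% lower. Part of that drop came with the features that left the test: over the 12417 features of the class that both fits tested, 5.34% were higher and 2.51% lower with all 7 fish, and 2.26% and 3.17% without Mys35. The class from 4 to 6 had more higher (5.05%) than lower features (4.41%) with all 7 fish. Without Mys35 these shares were 5.97% and 3.13%. In the class from 6 to 8 they were 2.98% and 2.48% with all 7 fish, and 4.01% and 1.00% without Mys35.

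**Figure D3:**
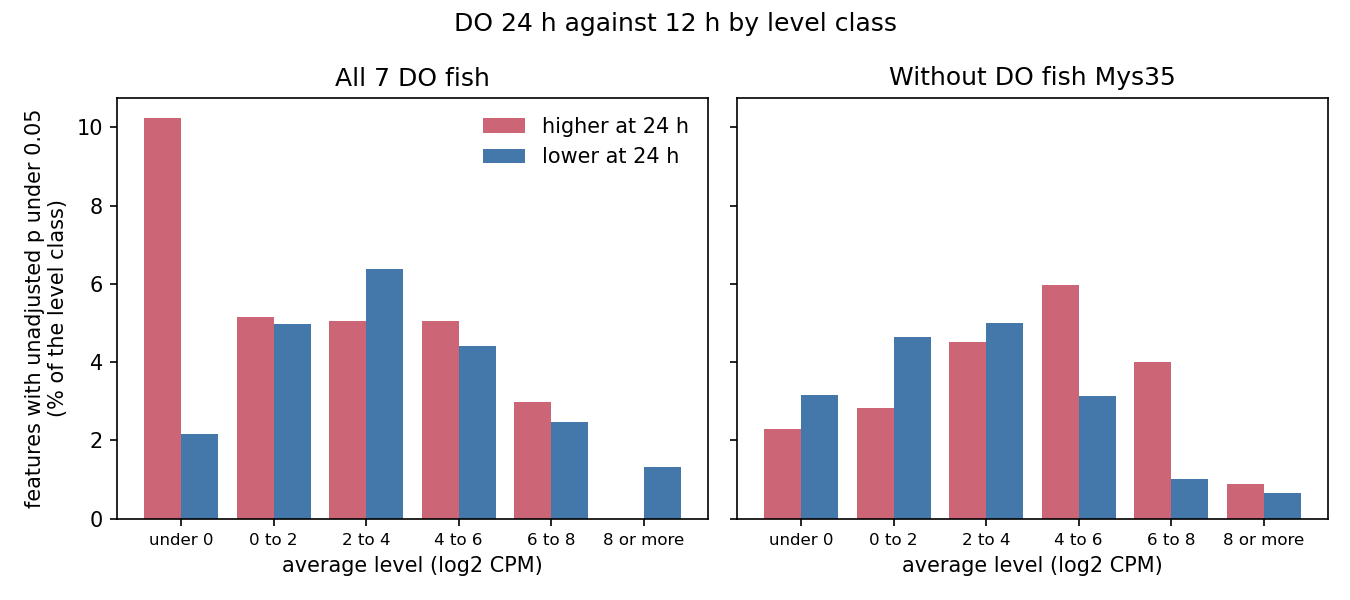
Share of features with an unadjusted p under 0.05 (vertical axis, percent of the class) by average level in log2 CPM (horizontal axis), higher at 24 h in red and lower in blue, for all 7 DO fish on the left and without fish Mys35 on the right. The red bar of the lowest class stands at 10.2% of 14591 features on the left and at 2.28% of 12558 features on the right. Fewer features could be tested on the right: over the 12417 features of the class tested in both fits, the shares are 5.34% and 2.26%.

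Among the 100 most abundant features, which held 40.8% to 63.0% of the counts of a fish, none differed between the times at an unadjusted p under 0.05. Of these 100, 1 had a log2 fold change above 0, with a median of -0.35 and a range from -0.83 to 0.16. Without fish Mys35, 53 of them were above 0, the median was 0.011 and the range ran from -0.49 to 0.40. At the other end, 43 of the 34070 features tested had no count in any of the 4 fish of 12 h and at least 1 count in each of the 3 fish of 24 h. The opposite, which asks for no count in 3 fish and a count in 4, held for 5. With at least 10 counts required in every fish of the time where the feature was present, 0 and 1 remained. The 24 h fish include Mys35, the fish with the most detected features, and no such counts without it are given.

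Fish outside the DO group show whether the 24 h against 12 h difference was shared. None of these fish entered the DO groups. In the mean over control, pH and cross fish, edgeR called 1420 features (4.17% of those tested) between 12 h and 24 h, 528 higher (1.55%) and 892 lower (2.62%). DO fish moved the same way in most of them: 464 of the 528 (87.9%) had a log2 fold change above 0 in DO fish, beside 53.2% of all features tested. Of the 892, 91.5% were below 0 in DO fish, beside 46.7% of all features tested. The median log2 fold change in DO fish was 0.62 and -0.63, where all features had 0.050. Without fish Mys35 the medians were 0.49 and -0.60, where all features had -0.046. Without fish Mys35 the shares were 79.3% above 0 (all features 46.6%) and 88.6% below 0 (all features 53.2%).

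Each of the 3 DO fish of 24 h showed this shift. For the 528 features the median shift from the DO 12 h mean was 0.51, 0.73 and 0.46 log2 units in Mys34, Mys35 and Mys36, while the 12 h fish ran from -0.030 to 0.069. For the 892 features it was -0.63, -0.68 and -0.44, while the 12 h fish ran from -0.21 to 0.15. The groups did not overlap in either list. The 12 h fish are part of the mean they are measured from, which narrows their range. At 2 weeks the DO fish ran from -0.073 to 0.065 and from -0.34 to 0.034, so for the features higher at 24 h the 2 week fish lay with the 12 h fish, and for the lower features fish Mys58 and Mys59 lay between the groups.

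**Figure D4:**
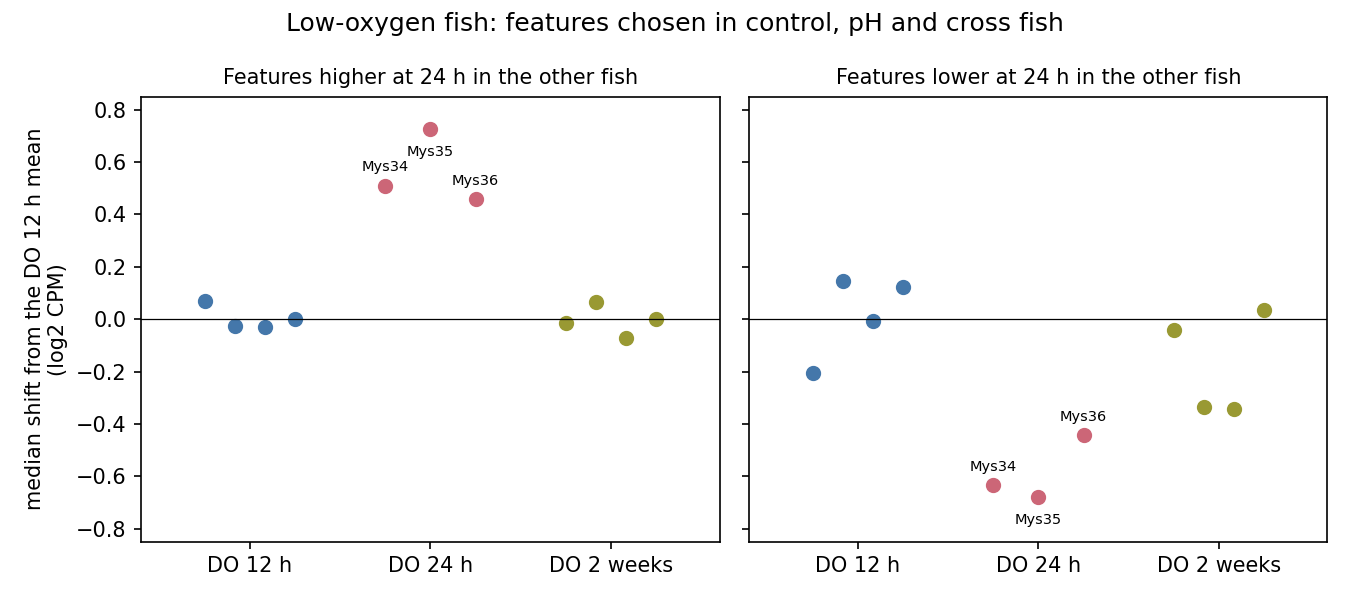
Median shift from the DO 12 h mean in log2 CPM (vertical axis) for each DO fish by sampling time (horizontal axis), over the 528 features higher (left) and the 892 features lower (right) at 24 h in the mean of control, pH and cross fish. The 3 fish of 24 h lie at 0.46 or more on the left and at -0.44 or less on the right, apart from all fish of 12 h. The fish of 12 h are part of the mean they are measured from.

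The same held for the features called in control fish alone. In control fish edgeR called 340 features (0.998%), of which 182 (0.534%) were higher at 24 h and 158 (0.464%) lower. In DO fish 95.1% of the 182 were above 0 and 94.9% of the 158 below 0, with median log2 fold changes of 0.67 and -0.67. In pH fish the shares were 87.4% and 93.0%. In cross fish they were 48.4% and 88.0%, so the features that rose in control fish had a median of -0.029 there. For all features tested the DO shares were 53.2% above and 46.7% below 0. Without fish Mys35 the DO shares of the 2 lists were 79.7% and 85.4%, beside 46.6% and 53.2% of all features. At an unadjusted p under 0.05, 64 of the 182 (35.2%) were higher and 77 of the 158 (48.7%) lower in DO fish, beside 7.19% and 3.87% of all features, and none was called in the opposite direction at that level.

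Read the other way, most features that stood out in DO fish had the same sign in control and pH fish. The share moved with single libraries and with the fit in every group, most widely in cross fish. Of the 1317 lower features 82.8% were also lower in control, 79.9% in pH and 64.8% in cross fish, beside 46.2%, 52.3% and 48.9% of all features tested. Of the 2449 higher features the shares were 75.1%, 66.1% and 75.4%, beside 53.8%, 47.7% and 51.1%. The cross value of the higher features rested on fish Mys7068, the library next to Mys35 in number of detected features. Without that fish 1645 of the 2449 passed the filter on low counts, and 54.2% of these were higher in cross fish, beside 46.2% of all features. The rest passed the filter only with Mys7068 in the fit. The 75.4%, and the cross share over both directions given below, are therefore in part set by the filter. When fish Mys35 was left out of the choice instead, 1015 features were higher, and 77.4% of them were higher in control, 79.9% in pH and 57.9% in cross fish, beside the same 53.8%, 47.7% and 51.1% of all features. Of the 1230 features then lower, 67.3% were lower in control, 79.3% in pH and 67.97% in cross fish, beside 46.2%, 52.3% and 48.9%. Over both directions, 71.7% of the 3766 features had the same sign in cross fish. That share was 63.4% without Mys35, 57.8% in the fit of only the groups compared, 56.5% in voom and 51.8% with 1 surrogate variable. It was 77.0% without Mys21, the highest of the alternatives. For control fish it was 77.8%, and 71.9% without Mys35, and for pH fish 70.9%, and 79.6% without Mys35.

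By the main edgeR fit and voom no feature's change over time differed between DO fish and another group past the threshold, while DESeq2 called a few. With no filter on low counts edgeR called 0 features for control, 12 for pH and 151 for cross. The values that follow are of the filtered fits. For the difference from the control change edgeR called 0 of 34070 features (0%). Unadjusted, 1688 (4.95%) had p under 0.05. The smallest adjusted p by edgeR was 0.974, and DESeq2 called 2 features and voom 0. Voom had 3625 of 34070 features at an unadjusted p under 0.05, with a lowest adjusted p of 0.0622. The edgeR fit without Mys35 had 2043 of 31894 and 0.0774, and that of only the DO and control groups 992 of 25476 and 0.9999. For the difference from the pH change edgeR called 0 (unadjusted 1681, 4.93%; lowest adjusted p 0.923), DESeq2 9 and voom 0. For the difference from the cross change edgeR called 0 (unadjusted 3184, 9.35%; lowest adjusted p 0.278), DESeq2 34 and voom 0. Against the mean change of the other 3 groups edgeR called 0, and 1510 features (4.43%) had an unadjusted p under 0.05. DESeq2 and voom were not run for this test. The median SE of these differences was 0.74 for control, 0.77 for pH and 0.74 for cross on the log2 scale, so differences of that size lie within the error of a single feature.

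Single fish moved the unadjusted counts of these differences. For control the count was 2724 of 33902 features tested without control fish Mys25, beside 1688 of 34070 in the main fit. Voom gave Mys25 a quality weight of 0.282, beside 0.901 to 1.42 in the other control fish of 24 h. For pH the count was 2487 of 33917 without pH fish Mys31 and 1038 of 31894 without DO fish Mys35, beside 1681 of 34070. For cross it stayed between 2257 (of 33810) and 4406 (of 34133) over the fish left out, beside 3184 of 34070.

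The number of features called between the times differed among the groups of fish, from 2 in DO and 10 in pH fish (0.0294%) to 340 in control and 853 in cross fish (2.5%; 534 higher, 1.57%, and 319 lower, 0.936%). DO and pH had 3 fish at 24 h, and control and cross 4. These counts do not show that DO fish changed less, which a count past a threshold in each group does not test. Over the 534 features higher in cross fish, the median shift from the cross 12 h mean was 3.31 log2 units in Mys7068. It was 1.85, 0.52 and 0.58 in Mys7069, Mys7070 and Mys7071. Those values chose the features, and no count without Mys7068 is given.

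Later levels of the DO features are given side by side, because these comparisons share fish. The 2449 features higher at 24 h had a median log2 fold change of 2.38 at 24 h against 12 h (1.03 without fish Mys35, over the 1616 that could be tested) and of 0.020 at 2 weeks against 12 h. The 1317 lower features had -1.23 and -0.059. In the mean of the DO fish their median level went from 1.67 log2 CPM at 12 h to 0.56 at 24 h and 1.59 at 2 weeks. The 2449 higher features had low levels of -2.00, -0.41 and -1.64 log2 CPM at these times, with fish Mys35 included. In control fish (4 at each time) the lower features had 1.28, 0.65 and 1.78 log2 CPM. The higher features had -1.32, -0.81 and -1.77 log2 CPM there. Between 24 h and 2 weeks edgeR called 1915 features in DO fish (5.62%), 720 higher (2.11%) and 1195 lower (3.51%). Between 12 h and 2 weeks it called 148 (0.434%), 36 higher (0.106%) and 112 lower (0.329%). The difference between these 2 counts was not tested. The calls between 24 h and 2 weeks use fish Mys35, and no count without it is given. Of the 2449 features higher at 24 h than at 12 h, 544 were among those 1195 lower features, beside 3.51% of all 34070 features. Of the 1317 features lower at 24 h, 353 were among the 720 higher features, beside 2.11% of all. Both comparisons use the same 24 h fish. A larger share than over all features is therefore built into the choice of the features and is not evidence of a return.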

How the data were processed

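White muscle messenger RNA was sequenced, 1 stranded library per fish per the labels' protocols. The tools named in the submitters' processing notes, which state no roles, are Bowtie, RSEM 1.3.0, edgeR, Trimmomatic 0.36 and FastQC 0.11.5. Libraries were made in sets in random order, per the labels' protocols, and the set of each fish was not stated. The deposited values are expected counts (estimated reads per assembled feature), not normalized, in 1 table per sampling time; 9.60% of them were not whole and were rounded. How the transcripts were assembled is not given in the sources used here. All 3 tables were joined by feature, since their 239549 identifiers were the same.

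The main test was the robust quasi-likelihood test in edgeR 4.0.16 under R 4.3.3, with TMM scaling (filterByExpr with minimum count 10 and total 15), two-sided, on 1 fit of all 44 libraries with a coefficient per group, Benjamini-Hochberg adjusted over 34070 features at 0.05. CPM were TMM-scaled, and log2 CPM used a prior count of 2. Each SE is the log2 ratio divided by the root of F. Detection at equal depth was the expected number of features with a count when reads were kept at random down to 9884766 per library. Named features had an average log2 CPM of at least 1 and groups that did not overlap; in each direction, the largest fold change and the smallest p past the threshold, filled by the smallest unadjusted p where fewer passed. Identifiers are printed for at most 2 features in each direction, and 1 feature of the rule is given without its own. Members, lists and tests were chosen with earlier results of these data known. The lists called in other fish, the values without fish Mys35 or Mys7068 and the difference from the mean of the other groups were added after seeing the data. The gene lists and markers set out for named genes could not be used. Alternatives were RLE, other filters, DESeq2 1.42.0, limma 3.58.1 voom, 1 surrogate variable (sva 3.50.0), fewer groups in the fit and each fish left out. The scripts of this test were checked on simulated data.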

Additional observations from a re-analysis of the deposited data

Results flagged for a closer look

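In all, 5 values lay far from the other fish of their group, the gap to the nearest fish being a large part of the range of the group. Such gaps arise by chance in about 1 of 20 groups, and 49 groups of values were looked at. In DO fish of 12 h the level of TRINITY_DN46034_c8_g1 was 7.30 CPM in fish Mys24, where the other 3 fish lay between 4.77 and 5.18 CPM. The same feature was at 6.22 CPM in control fish Mys52 at 2 weeks (others 1.97 to 2.65 CPM) and at 3.50 CPM in cross fish Mys7078 at 2 weeks (others 1.96 to 2.18 CPM). TRINITY_DN47201_c2_g3 was at 1.97 CPM in pH fish Mys17 at 12 h (others 0.661 to 0.832 CPM). The further rising feature of the naming rule was at 27.97 CPM in cross fish Mys7071 at 24 h (others 16.2 to 18.1 CPM). Without fish Mys24 the log2 fold change of TRINITY_DN46034_c8_g1 in DO fish was -2.49 in place of -2.65. Its edgeR adjusted p was then 0.460 in place of 0.0841. In that fit TRINITY_DN55078_c0_g1 and the further rising feature had the same edgeR adjusted p of 0.460. The higher adjusted p was therefore not particular to this feature. The 24 h group of 3 DO fish was too small for this rule, so fish Mys35 was not judged by it.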

How the results depend on the processing

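The number of features called between 24 h and 12 h in DO fish was 2 with RLE size factors, a minimum count of 30 and 1 surrogate variable, 324 with no filter on low counts, 86 by DESeq2 and 30 by voom; fits to 30 libraries and to only these 7 fish gave 0; the cause was not tested. With each fish left out it ran from 0 to 6: it was 5 without Mys21, 0 without Mys23 or Mys24, 6 without Mys35 and 1 without Mys36. The count at an unadjusted p under 0.05 was 2245 of 31894 features tested without Mys35, beside 3766 of 34070 in the main fit. For the difference from the control change DESeq2 gave 2 features. For the difference from the pH change the unfiltered fit gave 12 and DESeq2 9, and for cross 151 and 34. All other fits of these differences gave 0, those with a fish left out included. The share of higher features among those at an unadjusted p under 0.05 was 65.0%, 67.6% with RLE, 49.98% with 1 surrogate variable and 45.2% without Mys35. No named feature changed sign. The calls of TRINITY_DN47201_c2_g3 and TRINITY_DN53539_c0_g3 were lost in the fits of fewer groups (adjusted p 0.154 to 0.161). The named features that missed the threshold in the main fit passed it by DESeq2 and with no filter on low counts. DESeq2 adjusted p were 0.00066 for TRINITY_DN55078_c0_g1, 0.0014 for TRINITY_DN46034_c8_g1 and 0.0060 for the further rising feature. By voom the adjusted p were 0.0133, 0.0569 and 0.0329 in the same order. Without fish Mys21 the edgeR adjusted p of TRINITY_DN55078_c0_g1 was 0.0285. Voom gave fish Mys35 a quality weight of 0.295, the lowest of the DO fish. No paired analysis was possible because each fish carries its own number. Depth limits features near 0.2 CPM, and 3 against 4 fish limits all tests.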

Other observations

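Leaving out fish Mys35 gave 6 called features, 4 higher and 2 lower, among them the 2 called with all 7 fish. Of the 4 that were added, 1 that was higher stood at 0.151 to 0.493 CPM in the 12 h fish, at 8.85 and 3.73 CPM in fish Mys34 and Mys36 and at 0.028 CPM in fish Mys35. Another stood at 6.002 to 8.28 CPM at 12 h and at 16.3, 9.84 and 16.6 CPM in Mys34, Mys35 and Mys36. The 2 lower features had 0.968 to 3.31 and 1.004 to 2.73 CPM at 12 h. The first was at 0 CPM in both Mys34 and Mys36 and at 0.727 CPM in Mys35, the second at 0.0750 and 0.159 CPM and at 1.06 CPM. All 4 were chosen after their values were seen.

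Features called between 24 h and 12 h in cross fish are given here as a description. Of the 534 higher in cross fish 68.9% were above 0 in DO fish, beside 53.2% of all features. Without fish Mys35 it was 43.1% of the 462 that could be tested, beside 46.6% of all features. Of the 319 lower in cross fish 78.7% were below 0 in DO fish, beside 46.7% of all features, and 85.9% without fish Mys35, beside 53.2%. Cross fish Mys7068 had the largest shift over the 534 higher features (3.31 log2 units), and without it 434 of them could be tested.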
